A study of Mus musculus with 15 samples.

Results

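Mature XCR1+ dendritic cells (DCs) from mouse thymus were compared with mature XCR1+ DCs from the spleen of untreated mice. XCR1+ DCs, also called cDC1 or CD8 DCs, take up dying cells and present their antigens on MHC class I to CD8 T cells. On maturation they acquire the chemokine receptor CCR7, which guides them toward T cell areas, and they raise the surface molecules that T cells read. Maturation in the absence of infection is called homeostatic, and in the thymus such cells present self antigens to developing T cells.

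The comparison used 6 of the 15 arrays of the series, chosen by their sample titles. The 3 thymus arrays and the 3 spleen arrays both held CCR7+ cells sorted as CD11c+ CD317- CD172a- CD117-, all from untreated mice. XCR1 itself was not among the gates given, and neither strain nor age of the mice nor the number of mice per sample was given in the sources used here. The other 9 arrays held immature CD117+ CCR7- cells of thymus, the same fraction of spleen, and CCR7+ spleen cells taken 18 h after an injection of 10 µg polyI:C, a synthetic double-stranded RNA. They entered the fit to estimate the spread, and the immature groups were used for a second comparison of the tissues. Each array was hybridised with probe made from 40 ng of total RNA in 2 rounds of amplification. Nothing states that the 3 samples of a group came from separate mice, so the tests rest on the spread among these arrays, which may be technical.

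All levels below are log2 RMA signals of Affymetrix Mouse 430 2.0 probe sets, 1 probe set per gene, and every difference is thymus minus spleen on that log2 scale, so that 1 is 2-fold. Differences were tested with limma, and a gene counts as called where its p, adjusted by Benjamini-Hochberg for all 13629 tested genes, was below 0.05. Of these, 1660 (12.2%) were called, 1187 (8.71%) higher in thymus and 473 (3.47%) lower in thymus. List counts of mature cells below are to be read beside these 8.71% and 3.47%. At least 2-fold apart were 490 genes higher in thymus (3.6%) and 278 genes lower in thymus (2.04%). For 10002 genes (73.4%) the whole 95% confidence interval of the difference lay within 2-fold in either direction. The median difference over all genes was 0.04 and its median standard error 0.19.

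**Figure D1:**
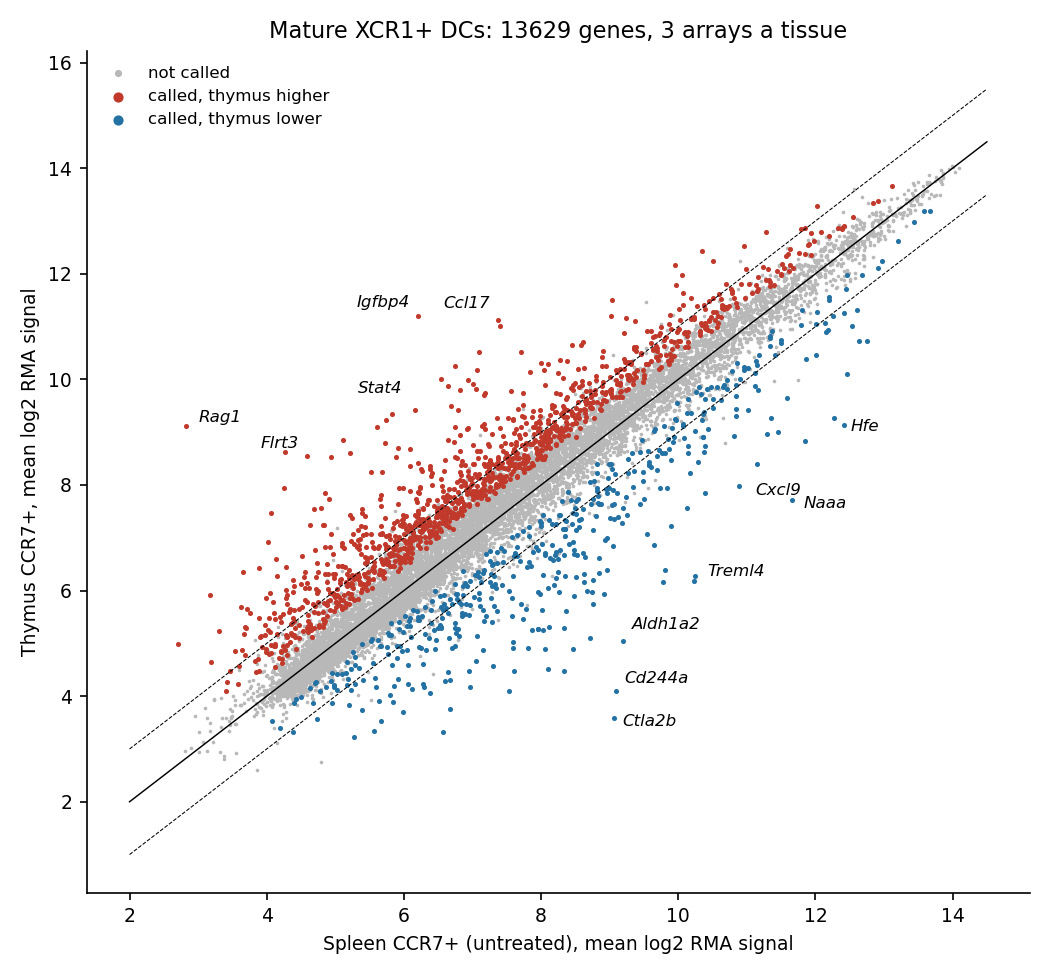
Each point is 1 of the 13629 genes tested, with its mean log2 RMA signal over 3 mature spleen arrays on the x axis and over 3 mature thymus arrays on the y axis. Red points (1187) were called higher in thymus, blue points (473) were called lower in thymus and grey points were not called; the solid line marks equal signal and the dashed lines a 2-fold difference. Igfbp4, Rag1 and Flrt3 lie far above the line, and Ctla2b, Cd244a and Aldh1a2 far below it.

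The arrays of the spleen group were less alike than those of the thymus group. Pearson's r across genes between replicates was 0.987 to 0.988 in mature thymus and 0.962 to 0.976 in mature spleen, with spleen replicate 1 the most distant, and the median standard deviation per gene was 0.18 in mature thymus and 0.27 in mature spleen. Fitting the 6 arrays alone gave 531 genes higher and 271 lower in thymus. Without thymus replicate 2 the genes called higher numbered 633, and without spleen replicate 2 those called higher by at least 2-fold numbered 749. In sorted bulk samples a smaller share of cells with a transcript and less transcript per cell cannot be told apart.

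Both groups carried the transcripts that define mature DCs at high level. Ccr7 gave 12.72, 13.13 and 13.24 in thymus, against 12.53, 12.98 and 13.35 in spleen. Its difference was 0.07, with a 95% interval of -0.66 to 0.81, and the immature means were 8.84 in thymus and 8.42 in spleen. Relb, the NF-kB subunit tied to DC maturation, averaged 11.74 ± 0.40 in thymus and 11.40 ± 0.67 in spleen (SD, n = 3 each). Cd83, which stabilises surface MHC class II, averaged 13.02 ± 0.13 in thymus and 13.13 ± 0.25 in spleen. Cd40, the receptor for T cell help, averaged 12.61 ± 0.08 in thymus and 12.38 ± 0.21 in spleen. Neither Relb, Cd83, Cd40, Fscn1 nor Socs2 was called, and the intervals of Cd83 (-0.48 to 0.26) and Cd40 (-0.14 to 0.59) stayed within 2-fold. Of the 25 tested genes on a DC maturation list, 4 were called higher in thymus, 0 lower and 21 not called. The list's median difference was 0.30, and the intervals of 14 of the 25 lay within 2-fold. Over all genes tested 8.71% were called higher and 73.4% had such intervals.

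The 4 that were called were Ccl17, Cd80, Ebi3 and Cd86. Ccl17 encodes a chemokine that attracts CCR4-bearing T cells. It read 11.19, 11.16 and 11.01 in thymus, against 8.30, 6.81 and 7.01 in spleen. The groups did not overlap, which held in one direction or the other for 26.2% of all tested genes. The 3 thymus arrays lay within a narrow band, while spleen replicate 1 stood above the other spleen arrays. The difference was 3.75 ± 0.30 (SE, limma adjusted p = 1.81e-06). Ccl17 was already higher in immature thymus cells (9.09, against 6.13 in immature spleen cells), and the tissue difference did not pass the test for a difference between stages (0.79, limma adjusted p = 0.401). Ccl22, which shares its receptor with Ccl17, averaged 13.60 ± 0.08 in thymus and 12.56 ± 0.45 in spleen (SD, n = 3 each), a difference of 1.05 that missed the threshold (limma adjusted p = 0.0531).

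Igfbp4, which encodes a secreted binding protein of insulin-like growth factors, gave the largest rise after Rag1 among the genes named by rule. It gave 10.75, 11.52 and 11.36 in thymus, against 6.25, 6.24 and 6.15 in spleen. All 3 thymus values lay far above every spleen value. The difference was 5.0 ± 0.26 (SE, limma adjusted p = 3.6e-08). Of its 6 probe sets above the filter, 4 were called higher and 0 lower, with differences of -0.29 to 5.20. In immature cells Igfbp4 averaged 6.28 in thymus and 5.82 in spleen and was not called, and the difference between stages was 4.54 (limma adjusted p = 1.53e-05). Among the 15 tested genes of the insulin-like growth factor axis, Igfbp4 and the receptor Igf1r (0.64) were called higher and 0 lower, and 13 had intervals within 2-fold. The Igf1r call ended with the replicate number as a block and without any one of 5 arrays.

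The 20 largest rises, picked among genes with all thymus arrays above all spleen arrays, ran from 3.12 to 6.29. Of these, 15 were also called higher in immature thymus and 11 had a called difference between stages. Over all genes tested the shares were 4.92% and 3.18%. The difference between stages contains the mature values by which the 20 were picked, so its count can be raised by that choice. Flrt3, a membrane protein of cell adhesion and axon guidance, read 8.65, 8.69 and 8.30 in thymus, against 4.83, 4.23 and 4.69 in spleen (difference 3.96 ± 0.18, limma adjusted p = 1.76e-08). Ramp3, a partner protein of the calcitonin-like receptor, read 8.48, 8.60 and 8.73 in thymus, against 5.17, 5.28 and 5.21 in spleen. Its difference was 3.38 ± 0.18 (limma adjusted p = 4.58e-08). Stat4, the transcription factor of interleukin-12 and type I interferon signalling, read 8.95, 9.75 and 9.58 in thymus, against 5.44, 6.79 and 6.24 in spleen (difference 3.27 ± 0.37). These 3 genes, like Ndnf (difference 3.51), lay below 5 in the immature cells of both tissues, and the tissues were not called apart there.

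The carbonic anhydrase Car13 (3.42) and the phospholipase Pla1a (3.53) rose in thymus as well. Car13 was already called higher in immature thymus by 3.19, and its difference between stages was 0.24 (limma adjusted p = 0.671), whereas Pla1a differed by 1.09 in immature cells and its difference between stages was 2.44 (limma adjusted p = 0.000291). Golm1, Gng4, Thbs4, Ndrg2 and Csn2 were also among the 20, with differences of 3.49 to 3.69. The mean levels in spleen CCR7+ cells 18 h after polyI:C are given here as levels only, since that group was not compared with thymus. Those cells averaged 10.28 for Ramp3, 10.91 for Stat4, 9.26 for Igfbp4, 6.77 for Flrt3, 4.98 for Golm1 and 5.92 for Ccl17.

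**Figure D2:**
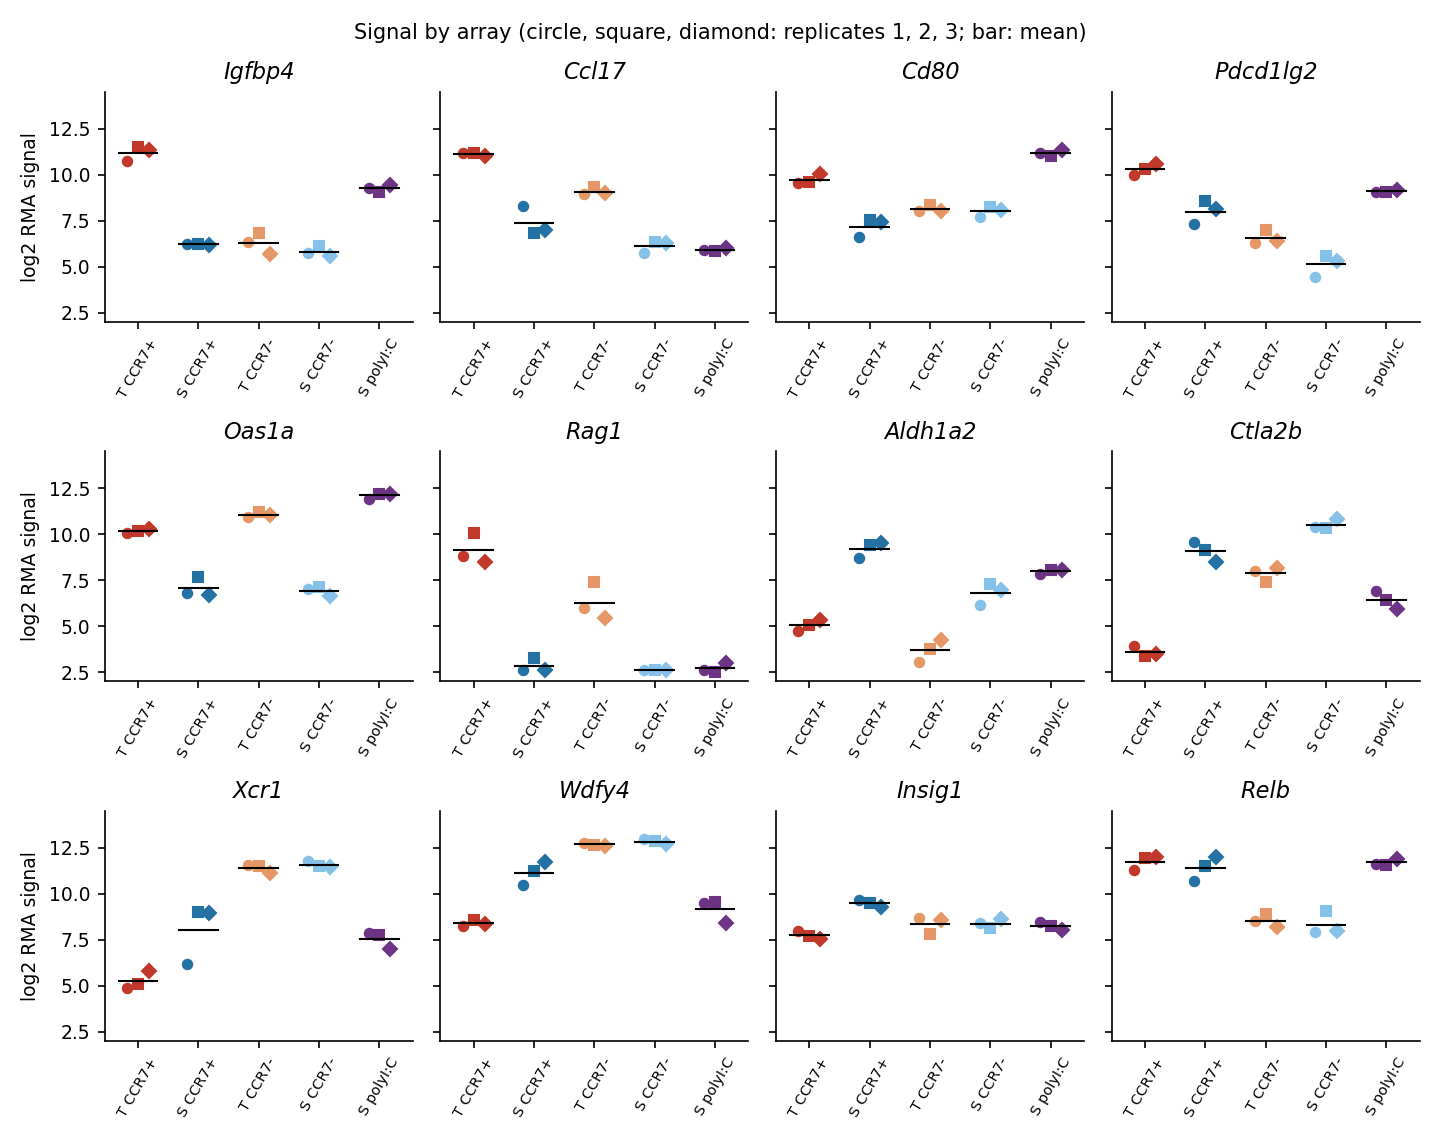
Log2 RMA signal of 12 genes in each array, with thymus CCR7+ (T CCR7+) left of spleen CCR7+ (S CCR7+), then the immature CCR7- groups and spleen CCR7+ cells after polyI:C; circles, squares and diamonds are replicates 1, 2 and 3 and bars are group means. Igfbp4, Ccl17, Cd80, Pdcd1lg2, Oas1a and Rag1 were higher in mature thymus, Aldh1a2, Ctla2b, Xcr1, Wdfy4 and Insig1 were lower there, and Relb overlapped between the tissues.

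T cell genes were among the largest rises. Rag1, the recombinase subunit of developing lymphocytes, read 8.81, 10.07 and 8.49 in thymus, against 2.62, 3.27 and 2.59 in spleen (difference 6.29 ± 0.44, limma adjusted p = 4.44e-07). The spleen arrays lay under 4.39, the filter value by which genes were chosen for testing, where signals are compressed, so the size of this difference is uncertain. Trbv1 (4.35), Cd3g (3.74), Bcl11b (3.48) and Sh2d1a (3.40) rose with it. Of 16 tested thymocyte and T cell markers, 12 were called higher in thymus and 0 lower, with a median difference of 1.38, and the count was 7 when only the 6 arrays were fitted. The mean signal of the 16 was 6.80, 7.85 and 6.63 in thymus and 5.24, 5.30 and 5.24 in spleen, so thymus replicate 2 stood highest. Cd3e (5.26 in thymus, 4.87 in spleen), Cd4 (5.81 in thymus, 5.93 in spleen) and Ptcra were not called. The part of T cell RNA in the other differences was not tested.

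**Figure D3:**
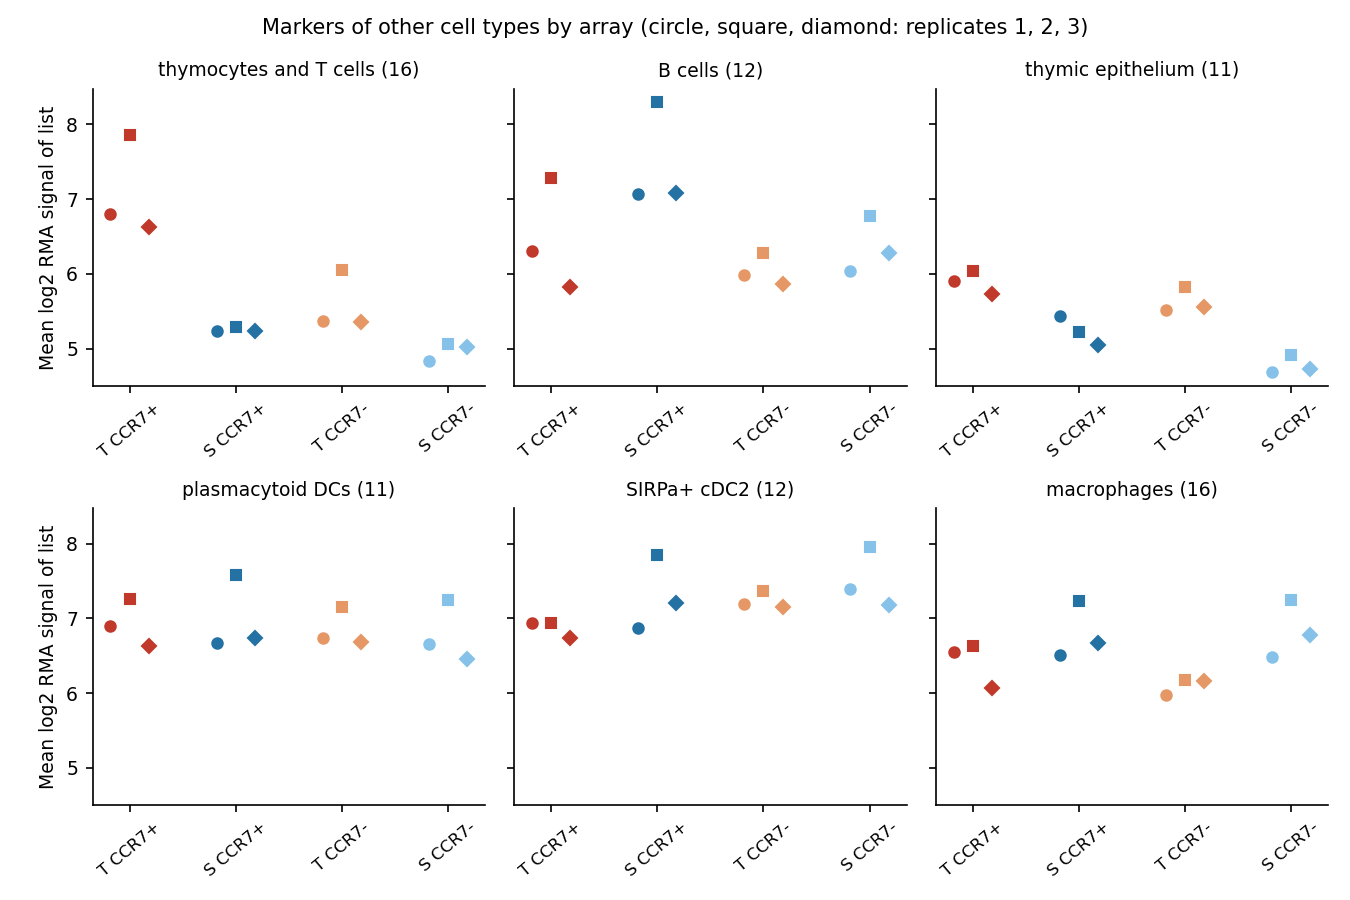
Mean log2 RMA signal of the tested markers of 6 other cell types in each mature and immature array, thymus left of spleen within each stage, with the number of markers in brackets and replicates 1, 2 and 3 as circles, squares and diamonds. Thymocyte markers reached 7.85 in mature thymus replicate 2, and B cell markers reached 8.29 in mature spleen replicate 2.

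B cell markers ran the other way. Their mean over 12 tested genes was 6.31, 7.28 and 5.83 in thymus and 7.06, 8.29 and 7.08 in spleen, with replicate 2 the highest in both tissues. Fcrla (-2.20), Ms4a1 (-1.88) and Cd22 (-1.71) were called lower in thymus and 0 of the 12 higher. The count of 3 became 1 without thymus replicate 3, 5 without spleen replicate 1 and 6 with the replicate number as a block. Among 11 thymic epithelial markers 4 were called higher, namely Krt8 (2.41), Epcam (1.78), Krt18 (1.71) and Fezf2 (0.58). The epithelial factors Foxn1 (4.66 in thymus, 4.84 in spleen) and Aire (5.45 in thymus, 5.65 in spleen) were not called, Foxn1 lay near the filter value of 4.39, and Psmb11 and Krt14 were not among the genes tested. Of 11 plasmacytoid DC markers 0 were called. Among 12 markers of SIRPa+ cDC2, Mgl2 was called higher and Il1b, Dtx1 and Notch2 lower. The Notch2 call ended without any one of the thymus arrays or without spleen replicate 2 or 3. Among 16 macrophage markers Axl was called higher and Hmox1, Marco and Spic lower. The lower count of macrophage markers was 1 without thymus replicate 1 or without thymus replicate 3. The gate markers read 6.37 for Sirpa in thymus and 6.56 in spleen, and 8.16 for Kit in thymus and 8.61 in spleen, and neither was called. Bst2, the transcript of the CD317 antigen that the sort excluded, was higher in thymus (10.65, 10.90 and 11.10, against 9.24, 9.39 and 9.0 in spleen).

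Genes of XCR1+ DC identity fell in thymus. Of 22 tested members 14 were called lower, 1 higher and 7 not called, with a median difference of -1.17. The 14 stayed at 14 when any one of the 6 arrays was left out. Xcr1 itself read 4.85, 5.09 and 5.81 in thymus, against 6.16, 9.0 and 8.93 in spleen. The thymus values lay not far above the filter value of 4.39, so the size of the Xcr1 difference is uncertain. Spleen replicate 1 stood apart from the other spleen arrays, and the difference of -2.78 ± 0.56 (SE, limma adjusted p = 0.00452) was not called when only the 6 arrays were fitted. Wdfy4, required for cross-presentation, gave a tighter pattern with 8.23, 8.57 and 8.37 in thymus, against 10.49, 11.22 and 11.73 in spleen (difference -2.76 ± 0.30). Cadm1, the adhesion molecule that marks this lineage, read 8.99, 9.01 and 8.88 in thymus, against 11.15, 11.35 and 11.39 in spleen (difference -2.33 ± 0.12). The fall also covered Tlr3 (-3.59), the receptor for double-stranded RNA, the scavenger receptor Cd36 (-4.06), the lipid amidase Naaa (-3.93), Rab7b (-2.56), Cd8a (-2.09), Plpp1 (-1.81), Septin3 (-1.52) and Itgae (-1.39), which encodes CD103.

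Irf8 and Batf3, transcription factors on which the lineage depends, were not called. Irf8 averaged 12.54 ± 0.18 in thymus and 12.26 ± 0.32 in spleen (SD, n = 3 each), with an interval of -0.11 to 0.66. Batf3 averaged 10.18 ± 0.26 in thymus and 10.36 ± 0.26 in spleen, with an interval of -0.60 to 0.23. The DC factor Zbtb46 (interval -0.47 to 0.30) and the growth factor receptor Flt3 (interval -0.11 to 0.49) stayed within 2-fold as well. Of 16 genes shared by DC types, 6 were called lower and 0 higher. Itgax, the transcript of the gate marker CD11c, read 6.14, 6.46 and 6.33 in thymus, against 7.98, 8.71 and 9.19 in spleen (difference -2.31). The 1 identity gene that rose was Itgb8, the integrin subunit that activates latent TGF-beta, with 9.48, 8.63 and 8.27 in thymus, against 6.79, 6.06 and 4.33 in spleen (difference 3.07 ± 0.55).

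In immature cells most of these genes stood at similar high levels in both tissues. Wdfy4 averaged 12.68 in immature thymus and 12.84 in immature spleen, Xcr1 11.40 in immature thymus and 11.58 in immature spleen, and Naaa 13.06 in immature thymus and 13.39 in immature spleen. The identity list had 3 members called higher, 3 lower and 16 not called in immature thymus, and a median of -0.17. Over all genes tested 4.92% were called higher and 3.24% lower in immature thymus. The tissue difference was more negative in mature than in immature cells for 9 of the 22, by the test of that difference (1.39% of all tested genes), and more positive for 0.

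The 20 largest falls ran from -5.48 to -3.00, and 11 were called lower in immature thymus too, against 3.24% of all tested genes. Ctla2b, a cysteine protease inhibitor, read 3.92, 3.38 and 3.46 in thymus, against 9.58, 9.13 and 8.49 in spleen. The thymus arrays lay under the filter value and all spleen arrays far above it. The difference was -5.48 ± 0.30 (SE, limma adjusted p = 5.15e-08). Cd244a, a SLAM-family receptor, read 4.34, 3.96 and 3.97 in thymus, against 8.51, 9.55 and 9.22 in spleen (difference -5.0 ± 0.59). Its thymus arrays also lay under the filter value, and the sizes of both falls are uncertain for that reason. Aldh1a2, the enzyme that makes retinoic acid, read 4.72, 5.07 and 5.33 in thymus, against 8.69, 9.40 and 9.51 in spleen (difference -4.16 ± 0.32, limma adjusted p = 1.61e-06). In immature cells it averaged 3.69 in thymus and 6.81 in spleen, which also differed, and the difference between stages was not called (-1.05, limma adjusted p = 0.284). The immature thymus mean of Aldh1a2 lay under the filter value of 4.39 and its mature thymus arrays not far above it. The sizes of its tissue differences, and of the difference between stages, are therefore uncertain too.

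Treml4 (-3.96), a receptor for dead cells, and Havcr2 (-3.03), which encodes TIM-3, fell together with Cd36 on the list of uptake receptors, where 5 of 28 were called lower and 2 higher. That count was 3 without any one of the thymus arrays or without spleen replicate 2. Mycl, the MYC family member of this DC lineage, read 6.24, 5.99 and 6.28 in thymus, against 9.58, 9.69 and 10.06 in spleen (difference -3.61 ± 0.17). Hfe, the MHC-like regulator of iron uptake, read 9.32, 9.07 and 9.41 in thymus, against 12.46, 12.24 and 12.10 in spleen (difference -3.00 ± 0.15). The lysosomal genes Gm2a (-3.29) and Ppt1 (-3.00), the prostacyclin synthase Ptgis (-3.42) and the epithelial transcription factor Ehf (-3.60) were among the 20. Ehf was low in immature cells of both tissues (3.77 in thymus, 4.24 in spleen) and reached 8.71 in mature spleen, against 5.10 in mature thymus.

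Several receptors for nucleotides and lipids were lower in thymus. Of 21 tested purinergic and related G protein-coupled receptor genes, 6 were called lower and 1, Ramp3, higher; the higher count was 2 without thymus replicate 1 or without spleen replicate 3. The largest falls were P2ry14 (-3.86), Gpr34 (-3.24), P2ry6 (-2.68) and Ptger2 (-2.11), with all thymus arrays of Gpr34 under the filter value. Among 20 chemokine receptors 4 were called lower and 0 higher. Besides Xcr1 these were S1pr1 (-1.97), which guides exit from tissues, Cxcr3 (-1.65) and Cxcr4 (-1.63); only 2 of the 4 were called when the 6 arrays were fitted alone.

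Genes on a list of ligands read by T cells, which also holds the receptors Cd244a, Havcr2 and Btla, moved in both directions. Of 29 tested members 9 were called higher and 6 lower, against 8.71% and 3.47% of all tested genes. The higher count was 5 without thymus replicate 2 or without thymus replicate 3. Cd80, the CD28 ligand, read 9.54, 9.63 and 10.03 in thymus, against 6.60, 7.52 and 7.44 in spleen (difference 2.55 ± 0.23, limma adjusted p = 7.72e-06). Of its 4 probe sets above the filter 3 were called higher and 0 lower. Cd86, the other CD28 ligand, read 12.20, 12.04 and 12.15 in thymus, against 11.45, 11.35 and 10.93 in spleen, a smaller rise of 0.89 from a high level. Pdcd1lg2, which encodes the PD-1 ligand PD-L2, read 10.01, 10.31 and 10.60 in thymus, against 7.31, 8.56 and 8.12 in spleen (difference 2.31 ± 0.32).

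Cd274, which encodes PD-L1, read 11.52, 11.31 and 11.36 in thymus, against 9.24, 10.89 and 10.69 in spleen. Its difference of 1.12 (limma adjusted p = 0.0285) was no longer called without any one of the thymus arrays. Cd70, the CD27 ligand, read 10.25, 10.05 and 10.21 in thymus, against 8.68, 7.41 and 8.04 in spleen (difference 2.13 ± 0.33). Slamf1 read 8.64, 8.56 and 8.88 in thymus, against 5.99, 5.90 and 5.86 in spleen (difference 2.78 ± 0.24). The tissue difference was more positive in mature than in immature cells for Cd80, Slamf1 and Cd274, by the test of that difference; in immature cells it was 0.14 for Cd80, 0.29 for Slamf1 and -0.80 for Cd274. Lower in thymus were Cd244a, Havcr2, Btla (-1.60), Vsir (-1.54), Icosl (-0.88) and Pvr (-0.87), and the last pair lost the call without single arrays. Icam1 averaged 12.52 ± 0.20 in thymus and 12.47 ± 0.30 in spleen (SD, n = 3 each) and stayed within 2-fold.

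Regulators tied to tolerance were likewise divided, with 7 of 30 called higher and 4 lower, against 8.71% and 3.47% of all tested genes. The higher count was 4 without thymus replicate 1 or without thymus replicate 2. Ido1, the tryptophan-degrading enzyme, read 7.40, 7.50 and 7.40 in thymus, against 6.03, 6.39 and 5.54 in spleen (difference 1.45 ± 0.31, limma adjusted p = 0.0073). In immature cells it was lower in thymus (5.20, against 6.38 in spleen), and the 2 tissue differences differed by 2.62 (limma adjusted p = 0.00378). Itgb8, Pdcd1lg2, Axl (2.15), Tgfb2 (1.31), Cd274 and Itgav (0.76) were the other rises, and Aldh1a2, Hmox1 (-1.66), Entpd1 (-1.58) and Pparg (-0.96) the falls. Cd200 averaged 11.27 in thymus and 11.37 in spleen, with an interval of -0.55 to 0.35.

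Among 23 chemokines 4 were called higher and 5 lower, against 8.71% and 3.47% of all tested genes. Ccl25, a thymus chemokine that attracts CCR9-bearing cells, read 6.87, 7.31 and 6.10 in thymus, against 4.90, 4.72 and 4.52 in spleen (difference 2.05 ± 0.24). Cxcl9, a CXCR3 ligand induced by interferon gamma, read 8.02, 7.57 and 8.33 in thymus, against 11.03, 10.96 and 10.65 in spleen (difference -2.91 ± 0.19). Ccl6 (-2.67), Ccl9 (-2.37), Ccl3 (-1.64) and Cxcl13 (-0.77) were also lower, and the count of 5 became 3 without thymus replicate 2. Ccl5 stood near the top of the scale in both tissues, 13.59 in thymus and 13.45 in spleen, and was not called.

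Of 23 cytokine genes 6 were called higher and 2 lower, and the lower count was 1 without thymus replicate 1. Il6 read 8.16, 7.29 and 8.39 in thymus, against 6.30, 5.69 and 5.80 in spleen (difference 2.02), a call that ended without thymus replicate 3. Ebi3 (1.31), the beta subunit of interleukin-27, Il1rn (1.27), Osm (1.19), Tgfb2 and Il7 (0.72) were the others. Il1b read 6.22, 6.09 and 6.47 in thymus, against 7.69, 8.91 and 8.93 in spleen (difference -2.25 ± 0.42). Il12b averaged 11.71 ± 0.28 in thymus and 10.87 ± 0.19 in spleen (SD, n = 3 each), with a difference of 0.83 that was not called (limma adjusted p = 0.105). Il15 averaged 11.77 in thymus and 11.45 in spleen and stayed within 2-fold.

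Type I interferon response genes formed the list with the most rises. Type I interferons switch on many antiviral genes that carry a DNA element named ISRE before their start. Of 37 tested members 23 were called higher in thymus, 2 lower and 12 not called, with a median difference of 0.92. The higher count was 17 to 23 when single arrays of the 6 were left out and 16 when the 6 were fitted alone. Oas1a, an antiviral RNA sensor, read 10.09, 10.18 and 10.27 in thymus, against 6.80, 7.67 and 6.72 in spleen (difference 3.12 ± 0.22, limma adjusted p = 4.44e-07). Irf7, the amplifying transcription factor of the response, read 8.56, 9.32 and 9.44 in thymus, against 5.87, 6.94 and 7.44 in spleen (difference 2.36 ± 0.39). Rsad2, which encodes the antiviral protein viperin, read 12.21, 11.96 and 12.32 in thymus, against 9.73, 9.86 and 10.26 in spleen (difference 2.21 ± 0.21). Ifit1 (2.28), Xaf1 (2.59), Oasl2 (2.60) and Ifi27l2a (3.22) rose with them.

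The response was not uniform. Ifitm3, a membrane protein that blocks virus entry, read 8.87, 8.67 and 8.70 in thymus, against 10.23, 10.09 and 10.10 in spleen, a difference of -1.40 ± 0.16 (SE, limma adjusted p = 4.91e-05). Phf11d (-0.61), the other fall, lost its call without thymus replicate 2 or without spleen replicate 3. Mx1 averaged 8.20 ± 0.64 in thymus and 8.43 ± 0.87 in spleen (SD, n = 3 each), with overlapping arrays and an interval of -1.14 to 0.68. In immature cells 27 members were called higher and 2 lower, with a median of 1.47, and 5 members had a more negative and 1 a more positive tissue difference in mature cells, by the test of that difference. Among the 5 were Usp18 (difference between stages -2.20), Ifit2 (-1.54) and Rsad2 (-1.23). Of all genes tested, 4.92% were called higher and 3.24% lower in immature thymus. The difference between stages was called more negative for 1.39% and more positive for 1.79%. Of 23 genes of the interferon gamma response 6 were called higher and 2, Cxcl9 and Ciita, lower, while in immature cells 0 were called higher and 4 lower. Ifngr1, a chain of the interferon gamma receptor, was lower in thymus by -1.85 in mature cells and by -1.84 in immature cells.

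To show the element beside these values, the windows from 250 bases before to 50 bases after each gene's start were searched for the letters GAAA, any 2 bases (NN) and GAAA again, or on the other strand TTTC, NN and TTTC, in RefSeq sequence of build GRCm38.p6. Of the 23 genes called higher 18 had a window, and 8 of these (44.4%) held the letters, as did 1 of the 2 called lower, Ifitm3, and 3 of the 6 not called that had a window. Among all 27025 genes with a window the share was 3.99%, and among the tested genes with a window 3.71%. The stretches below cover the matches before the start site of 6 of the 8, with 10 flanking bases and with the letters in capitals, because these genes were called higher in thymus. Overlapping matches run together.
Oas1a, chr5:120907520-120907555, minus strand: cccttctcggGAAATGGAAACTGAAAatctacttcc
Bst2, chr8:71537577-71537612, minus strand: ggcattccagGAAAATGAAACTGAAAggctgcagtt
Ifit1, chr19:34640775-34640823, plus strand: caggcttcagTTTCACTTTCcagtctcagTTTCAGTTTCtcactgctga
Ifit3, chr19:34583363-34583426, plus strand: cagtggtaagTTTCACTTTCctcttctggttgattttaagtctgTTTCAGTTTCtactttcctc
Oas3, chr5:120777715-120777744, minus strand: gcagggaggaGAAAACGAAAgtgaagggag
Rsad2, chr12:26456553-26456582, minus strand: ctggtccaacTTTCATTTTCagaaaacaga
The first bases of the matches lie 20 and 14 bases before the start of Oas1a, 130 and 124 before that of Bst2, and 104 and 85 before that of Ifit1. A match describes the letters in the window and is not a shown binding site.

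Genes of sterol synthesis were lower in thymus. They encode the enzymes that make cholesterol and are known to be switched on together by the factor SREBP2 when cell sterol is low. Of 20 tested members 12 were called lower and 0 higher, with a median difference of -0.84, and the count was 9 to 12 when single arrays were left out and 7 when probe sets that may cross-hybridise (suffix _s_at, _x_at or _a_at) were left out. Insig1, which retains the SREBP complex and is itself a target, read 7.96, 7.69 and 7.55 in thymus, against 9.67, 9.52 and 9.30 in spleen (difference -1.77 ± 0.23, limma adjusted p = 0.000143). Hmgcs1, the synthase at the head of the pathway, read 11.58, 11.36 and 10.65 in thymus, against 12.60, 11.95 and 12.21 in spleen (difference -1.06 ± 0.23). Stard4 (-1.37), Cyp51 (-1.23), Mvd (-1.15), Srebf2 (-1.05), Msmo1 (-1.01) and Lss (-0.99) fell as well.

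In immature cells 1 sterol gene, Msmo1, was called lower and 0 higher, against 3.24% and 4.92% of all tested genes, and the median was -0.04. The mean signal of the 20 tested genes was 7.93, 7.70 and 7.75 in immature thymus and 8.22, 8.30 and 8.05 in mature thymus. In spleen it was 7.99, 7.65 and 7.88 in immature cells, 8.82, 8.92 and 8.90 in mature cells, and 8.33, 8.27 and 8.14 after polyI:C. Insig1 averaged 8.36 in immature thymus and 8.38 in immature spleen, and its difference between stages was -1.75 (limma adjusted p = 0.00722). Among 15 genes of the LXR and cholesterol efflux list Abca1 (1.98) was called higher and Scarb1 (-2.68) lower, and Abcg1 averaged 12.81 in thymus and 12.84 in spleen. Of the 9 sterol genes called lower with a RefSeq window, 1, Hmgcs1, held the letters TCACNCCAC of a sterol regulatory element. The search also took their reverse complement GTGGNGTGA, and the share over all genes with a window was 1.44%. The 1 match is shown in capitals, with its start 137 bases before that of the gene.
Hmgcs1, chr13:119690204-119690232, plus strand: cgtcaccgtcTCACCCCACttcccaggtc

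**Figure D4:**
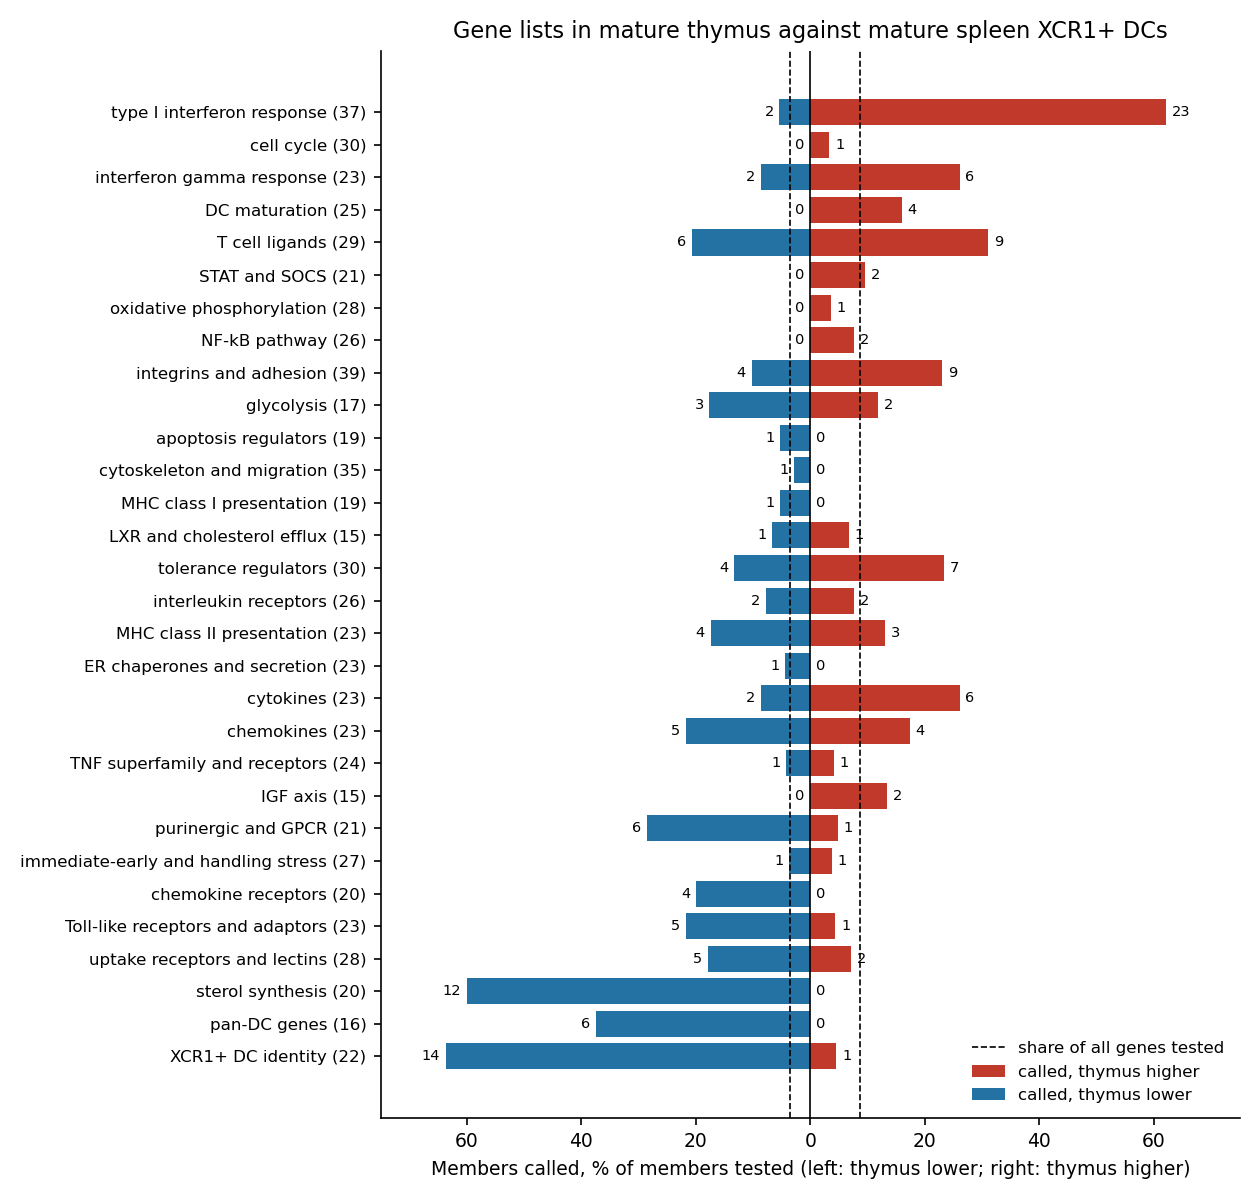
Share of the tested members of 30 gene lists called lower (left, blue) or higher (right, red) in mature thymus against mature spleen, with the number of genes at the bar ends, the number tested in brackets and the lists ordered by median difference. Dashed lines mark the shares over all genes tested, 3.47% lower and 8.71% higher. The type I interferon list reaches farthest right with 23 genes, and the lists of XCR1+ DC identity (14) and sterol synthesis (12) farthest left.

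Antigen presentation genes differed at single steps. H2-Ab1, the beta chain of MHC class II, averaged 13.06 ± 0.17 in thymus and 13.26 ± 0.04 in spleen (SD, n = 3 each), with an interval of -0.54 to 0.14. H2-DMa, part of the peptide-loading catalyst, read 8.48, 8.82 and 8.57 in thymus, against 10.54, 10.11 and 10.47 in spleen (difference -1.75 ± 0.16). Marchf1, the ubiquitin ligase that removes MHC class II and CD86 from the surface, read 5.32, 5.29 and 4.47 in thymus, against 7.18, 8.17 and 7.42 in spleen (difference -2.57 ± 0.40). The related ligase gene Marchf8 rose by 1.59. The list had 4 lower and 3 higher of 23, and the higher count was 1 without thymus replicate 2.

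For MHC class I, 17 of 19 tested members had intervals within 2-fold. H2-K1, B2m and Tap1 differed by 0.06, 0.02 and -0.02. The 2 others were Pdia3, an oxidoreductase of the peptide-loading complex, which was not called (0.50, interval -0.38 to 1.39), and Cd1d1, which presents lipids to NKT cells, which read 10.56, 10.73 and 10.88 in thymus, against 12.33, 12.80 and 13.12 in spleen (difference -2.03 ± 0.20). Cd1d1 was also lower in immature thymus, by -2.48. Toll-like receptor genes included 5 of 23 lower, led by Tlr3, Tlr1 (-2.27) and Cd180 (-2.05), and 1 higher. The higher gene, Irak3 (0.71), lost its call without thymus replicate 2, spleen replicate 1 or spleen replicate 3, and the count of 5 was 3 without thymus replicate 1, thymus replicate 3, spleen replicate 2 or spleen replicate 3.

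Adhesion genes moved both ways, with 9 of 39 higher and 4 lower, against 8.71% and 3.47% of all tested genes. Cldn1, a tight junction protein, read 9.70, 9.23 and 9.58 in thymus, against 6.71, 7.02 and 6.32 in spleen (difference 2.82 ± 0.24). It was 12.05 in immature thymus and 6.82 in immature spleen, so its tissue difference was smaller in mature cells, by -2.42 (limma adjusted p = 0.000907). F11r (1.36) and Epcam (1.78) had the same order, with tissue differences of 4.47 and 4.03 in immature cells. Itga8 (-2.89) was the largest fall on the list.

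Of 17 glycolysis genes 2 were called higher, the glucose transporter Slc2a1 (0.67) and the phosphofructokinase Pfkp (0.82), and 3 lower, the hexokinases Hk2 (-1.15) and Hk3 (-1.53) and the lactate dehydrogenase subunit Ldha (-0.79). Without any one of the thymus arrays, or without spleen replicate 3, 0 were called higher and 1 lower, and without spleen replicate 2 the counts were 3 higher and 1 lower; the higher count was 1 without spleen replicate 1. Of 26 NF-kB pathway genes 2 were called higher, 0 lower, and 16 had intervals within 2-fold. Over all genes tested 8.71% were called higher, 3.47% lower and 73.4% had such intervals. Of 35 genes of cytoskeleton and migration 1 was called lower, 0 higher, and 27 had intervals within 2-fold, and of 28 oxidative phosphorylation genes 1 was called higher and 24 had such intervals. Of 30 cell cycle genes 1, Cdk1 (1.55), was called higher in mature thymus and 0 lower, with a median of 0.52. In immature thymus 14 were called higher, against 4.92% of all tested genes, and the median was 1.35. The difference between stages was called for 0 of the 30 in either direction. Of 27 immediate-early and handling stress genes Nr4a2 (1.97) was called higher and Egr3 (-2.01) lower. The Nr4a2 call ended without any one of 4 arrays, and the genes of the list called lower numbered 3 with the replicate number as a block and 4 without spleen replicate 1.

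The tissue difference of mature cells was set against that of immature cells, which share no arrays. In immature cells 1112 genes (8.16%) were called, 671 higher (4.92%) and 441 lower (3.24%) in thymus; by at least 2-fold these were 405 (2.97%) and 265 (1.94%). Of the 1187 genes higher in mature thymus 219 (18.4%) were also higher in immature thymus, which is 32.6% of the immature list. Of the 473 lower in mature thymus 177 (37.4%) were also lower in immature thymus, or 40.1% of that list. The difference itself was called for 433 genes (3.18%), more positive in mature cells for 244 (1.79%) and more negative for 189 (1.39%), of which 211 (1.55%) and 169 (1.24%) differed by at least 2-fold. The 244 became 149 without mature thymus replicate 2, 156 without immature thymus replicate 2, 144 without immature thymus replicate 3 and 161 without immature spleen replicate 3. The difference was called for 197 of the 1187 and for 72 of the 473. It contains the mature values by which these genes were called, so these counts are no independent support.

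**Figure D5:**
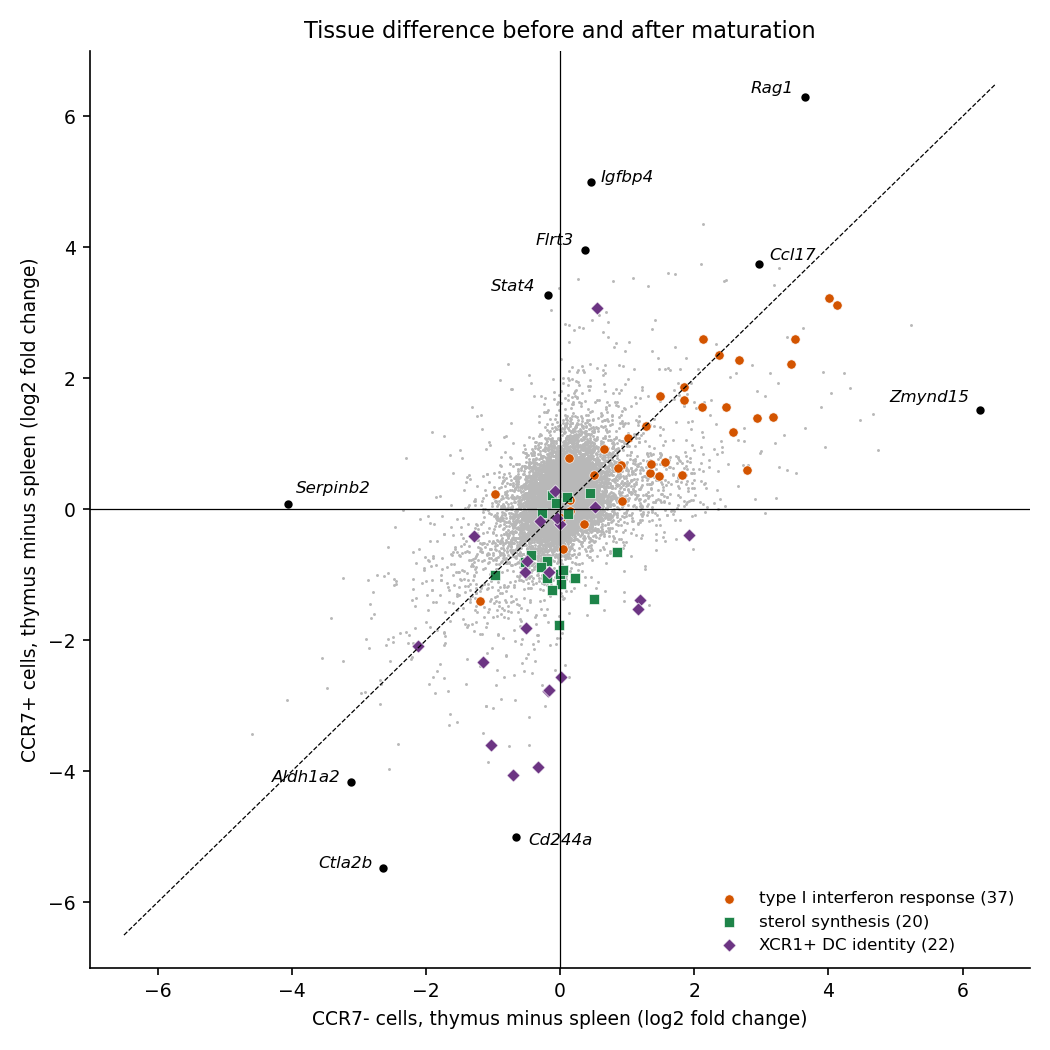
Thymus minus spleen log2 fold change in mature CCR7+ cells (y axis) against the same in immature CCR7- cells (x axis), with 1 grey point per tested gene, the members of 3 lists in colour and 10 named genes in black; the dashed line marks equal differences. Igfbp4, Flrt3 and Stat4 lie high near 0 on the x axis, interferon genes lie to the upper right, and most sterol genes lie below 0 on the y axis and near 0 on the x axis.

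The most positive differences between stages, besides those of Igfbp4, Flrt3, Stat4, Ramp3 and Ndnf, were those of Serpinb2, Snhg16 and Vopp1. Serpinb2, a serine protease inhibitor, was low in mature cells of both tissues (4.04 in thymus, 3.96 in spleen) and its difference arose in immature cells (3.44 in thymus, 7.49 in spleen). The host gene of small nucleolar RNAs Snhg16 averaged 9.98 in mature thymus and 6.93 in mature spleen, although its other probe set gave -0.36. Among the most negative, Zmynd15 averaged 12.79 in mature thymus and 11.28 in mature spleen, but 10.95 in immature thymus and 4.70 in immature spleen. Klrb1b, Cd84 and Matn2 were higher in immature thymus by 3.05 to 4.74, and in mature cells their means were 2.94 to 5.57 in thymus and 3.01 to 4.11 in spleen. In mature cells Cd84 (1.46) and Klrb1b (0.91) were called higher in thymus too, the Klrb1b call ending without any one of 4 arrays, and Matn2 (-0.06) was not called.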

How the data were processed

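The authors deposited log2 RMA values of 15 Affymetrix Mouse 430 2.0 arrays, made with RMA and the affy package per the submitters' processing notes; neither versions nor which arrays were normalised together is stated there. RMA gives no detection calls, so low signals are compressed. Of 45101 probe sets 34958 had 1 gene symbol (18194 genes), 932 had several and 9211 were not listed. The probe set of highest mean over 15 arrays stood for its gene. Genes that exceeded 4.39, the 40th percentile of the table, in 3 or more arrays went into limma 3.58.1 (R 4.3.3) as 5 group means on all 15 arrays (10 residual and 4.01 prior degrees of freedom), with Benjamini-Hochberg adjustment over 13629 genes. An exact test of 3 against 3 arrays could not go below p = 0.1. The model was tested on simulated data.

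Members, lists (30 programmes and 10 other cell types; 911 of 995 entries had a probe set) and naming rules were chosen with earlier results of these data known. Named were the 20 largest rises and falls that were called, at least 2-fold apart and separated in all arrays, list members, sorting markers, and the 8 most positive and 8 most negative differences between stages, without predicted genes. The titles number the replicates, and nothing states that equal numbers mark pairs. Deviations of same-numbered thymus and spleen arrays correlated at 0.46, 0.42 and 0.59 in mature and 0.57, 0.52 and 0.56 in immature cells. Pairs were therefore fitted as an alternative, with the replicate number as a block. The main fit, which gave the p, SE and interval values above, took the arrays as independent. Alternatives were the dim probe filter, the choice of probe set, normalisation, eBayes settings, array weights, the groups fitted, the replicate block, a test against 2-fold (treat) and leaving out single arrays.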

Additional observations from a re-analysis of the deposited data

Results flagged for a closer look

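For 62 named genes the thymus minus spleen difference of mature cells differed from that of immature cells by the test of the difference itself (limma, adjusted p under 0.05 over all genes tested), which is why they are listed. Each value is the mature difference minus the immature difference, on the log2 scale, so a negative value means a less positive or more negative difference in mature cells. The most positive were Igfbp4 (4.54), Serpinb2 (4.14), Flrt3 (3.60), Stat4 (3.44), Ramp3 (3.40), Ndnf (3.24), Snhg16 (3.18) and Vopp1 (3.09). The most negative were Zmynd15 (-4.74), Cd244a (-4.34), Klrb1b (-3.83), Naaa (-3.59), Cd36 (-3.36), Cd84 (-3.20), Ehf (-3.14) and Matn2 (-3.11).

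Among the other largest rises in mature thymus the values were Thbs4 (2.70), Rag1 (2.65), Pla1a (2.44), Sh2d1a (2.10), Gng4 (1.99) and Golm1 (1.87). Among the other largest falls they were Mycl (-2.84), Ctla2b (-2.83), P2ry14 (-2.79), Ppt1 (-2.78), Lpar6 (-1.89), Hfe (-1.89) and Dkk3 (-1.17). Further genes of DC identity were Septin3 (-2.68), Wdfy4 (-2.60), Itgae (-2.58), Rab7b (-2.57), Itgax (-1.95), Plpp1 (-1.30) and Cadm1 (-1.18), all more negative. Interferon genes were Ido1 (2.62), Cxcl9 (-2.24), Usp18 (-2.20), Cd274 (1.92), Ifit2 (-1.54), Rsad2 (-1.23), Il18bp (1.13) and Xaf1 (-0.91). Sterol genes were Stard4 (-1.88), Insig1 (-1.75) and Cyp51 (-1.12), and T cell ligands were Slamf1 (2.49), Cd80 (2.41), Pvr (-2.14) and Vsir (-1.05). Adhesion genes were F11r (-3.10), Cldn1 (-2.42) and Epcam (-2.26). The remaining list members were Nr4a2 (2.87), Ccl25 (1.41) and Osm (0.995) on the positive side and Ccl9 (-2.44), Mgl2 (-2.12), Tlr1 (-1.77), Entpd1 (-1.71) and H2-DMa (-1.40) on the negative side.

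Where the immature or the mature cells of a tissue lie near or under the filter value of 4.39, as for Serpinb2, Klrb1b and Matn2, compressed signals limit the size of the value. Each value shares its mature arrays with the comparison of the report and is no independent support for it.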

How the results depend on the processing

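Of 211 called genes among those named or listed, 154 kept the call without each of the 6 mature arrays, 207 with the replicate block and 62 under every alternative that gave a value; directions turned in 3 values. Rfxank (0.65) gave -0.20 without the probe sets of suffix _s_at, _x_at or _a_at, and Ifnar2 (0.66) gave -0.028 as the mean of its probe sets and -0.26 with the probe set of largest variance; other probe sets of the gene stand behind these values. The replicate block, with same-numbered arrays paired, called 1264 genes higher and 511 lower in mature thymus, 1576 of them shared with the 1660, and moved a printed list count by over 1.5 times only where given in the report or for lists with 0 to 2 genes called.

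Fitting only the compared groups gave 531 higher and 271 lower, from fewer arrays. Testing against 2-fold (treat) gave 64 higher and 60 lower in mature cells, 82 higher and 46 lower in immature cells, and 13 more positive and 16 more negative differences between stages, whether or not 2-fold was also required. Array weights gave 1142 higher and 846 lower in immature cells and 284 more negative differences; the cause was not tested. Leaving out 1 array at a time gave, in mature cells, 633 to 1506 higher and 341 to 544 lower, and 374 to 749 higher and 238 to 339 lower by at least 2-fold. In immature cells it gave 457 to 615 higher and 294 to 365 lower, and 332 to 433 higher and 224 to 253 lower by at least 2-fold. For the differences between stages it gave 144 to 358 more positive and 126 to 217 more negative, and 136 to 309 and 120 to 195 by at least 2-fold. Genes with intervals within 2-fold numbered 9059 to 10202. Of 1440 recounted list values 1215 stayed within 1.5 times. With 3 arrays a group and no detection calls, precision is limited by their number, and small changes of dim genes were not detectable.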
